A study of Mus musculus with 12 samples.

Results

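Cat, Sod1, Sod2, Nqo1, Gclc, Gclm, Txnrd1, Srxn1, Slc7a11 and Prdx1 are antioxidant genes: catalase, a pair of superoxide dismutases, and enzymes and a transporter of the glutathione and thioredoxin systems that the transcription factor NRF2 is known to drive. They were taken by gene symbol alone, and all 10 were found among the 55573 genes of the count table and among the 14197 genes that passed the filter on low counts. Their values were compared between macrophages (MΦs) and macrophages co-cultured with myeloma cells (MM-MΦs), with and without BMI1, a Polycomb protein of the PRC1 complex.

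The RNA-seq libraries fall into 4 groups of 3, which are MM-MΦs of BMI1-KO and of wt mice and MΦs of BMI1-KO and of wt mice. The wt mice were BMI1fl/fl and the BMI1-KO mice BMI1fl/fl Mx1-Cre, on the C57BL/6 background, and Mx1-Cre is driven by an interferon-inducible promoter that is not confined to macrophages. Mice of both genotypes were given 5 doses of 15 mg/kg poly-I:C at 6 to 8 weeks of age, so the controls carry the floxed allele and the poly-I:C as well. Bone marrow was taken 4 weeks later and cultured for 7 days with 5 ng/mL M-CSF. MM-MΦs were then kept for 48 h with 5TGM1 cells, a mouse myeloma line, and CD11b+ F4/80+ cells were sorted. Whether the MΦs were kept for those 48 h as well is not stated, so MM-MΦs may also differ from them by time in culture. Nothing states that the 3 libraries of a group came from separate mice, so p-values measure the spread between these libraries, which may be technical.

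The libraries held 9662279 to 11142768 counts each. Bmi1 had 325, 281 and 364 counts in wt MM-MΦs and 251, 263 and 321 counts in wt MΦs, while every BMI1-KO library lists it at 0. The totals that the FPKM values imply were larger than the sums of the count columns by 512 to 734 counts in BMI1-KO and matched them within 2 counts in wt, so the zeros of Bmi1 were not taken as a check of the labels. Macrophage markers were present throughout, with summed levels of 13000 to 18200 CPM over 8 genes led by Lyz2, Csf1r and Adgre1. Libraries stood apart by replicate number: the 8 proliferation markers, led by Mki67, Pcna and Top2a, summed to 268 to 559 CPM in the 4 libraries numbered 1, to 698 to 787 CPM in those numbered 2 and to 893 to 2620 CPM in those numbered 3. CPM is a count scaled to the library total and, between libraries, by TMM, with these exceptions. Summed marker levels, the levels of Cd79b, Prdm1, Xbp1 and Sdc1, and the range of Hmox1 are scaled to the library total alone.

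Cells remove superoxide in steps. Superoxide dismutases turn it into hydrogen peroxide, and catalase, glutathione peroxidases and peroxiredoxins turn hydrogen peroxide into water. NRF2 is held low by KEAP1 and, when released under oxidative or electrophilic stress, binds antioxidant response elements before genes for glutathione synthesis (Gclc, Gclm), cystine import (Slc7a11), the thioredoxin system (Txnrd1, Srxn1, Prdx1) and quinone reduction (Nqo1). Macrophages both make superoxide, through the NADPH oxidase of phagocytes, and have to withstand it.

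Because most of these genes are known as NRF2 targets, the bases before their starts are shown where they hold the core letters of the antioxidant response element. TGACNNNGC or its reverse complement GCNNNGTCA was searched on both strands in the 250 bases before each start in the RefSeq promoter table (GRCm38.p6). It was found for 4 of the 9 genes with an entry (all but Gclc), as against 11.5% of 27025 genes in the table, and every match ran in the reverse direction. The matches are in capitals, written 5′ to 3′ on the strand of the gene, which is the forward strand for each.
Gclm, chr3:122245403-122245451: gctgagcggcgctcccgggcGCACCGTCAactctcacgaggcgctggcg
Prdx1, chr4:116685446-116685494: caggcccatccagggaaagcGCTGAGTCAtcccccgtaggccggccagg
Txnrd1, chr10:82859094-82859142: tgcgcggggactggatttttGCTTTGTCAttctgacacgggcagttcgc
Sod1, chr16:90220686-90220734: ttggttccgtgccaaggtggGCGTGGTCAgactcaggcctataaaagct

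The matched letters began 134 bases before the start of Gclm, 133 bases before that of Prdx1, 92 bases before 1 of 3 starts of Txnrd1 and 56 bases before that of Sod1. Cat, Sod2, Srxn1, Slc7a11 and Nqo1 had no match in this window. A match is a description of the sequence and not a binding site.

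Prdx1 was the most abundant of the 10 transcripts per length and Nqo1 the least. Prdx1, a peroxiredoxin of the cytosol, had a median of 349.8 FPKM over the 12 libraries (224 to 442 FPKM), above every other member in all libraries. Cat followed with a median of 113 FPKM and Txnrd1 with 73.9 FPKM. Srxn1 (58.6 FPKM), Gclm (32.7 FPKM), Gclc (28.2 FPKM), Sod2 (18.7 FPKM) and Sod1 (16.2 FPKM) came next, and each overlapped its neighbour in this order. Slc7a11, with a median of 7.01 FPKM (2.82 to 11.4 FPKM), lay below Sod1 in all 12 libraries and overlapped with Nqo1 (median 0.915 FPKM, 0.25 to 3.35 FPKM). These are the deposited FPKM values, which are per length, and they order levels rather than differences.

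**Figure D1:**
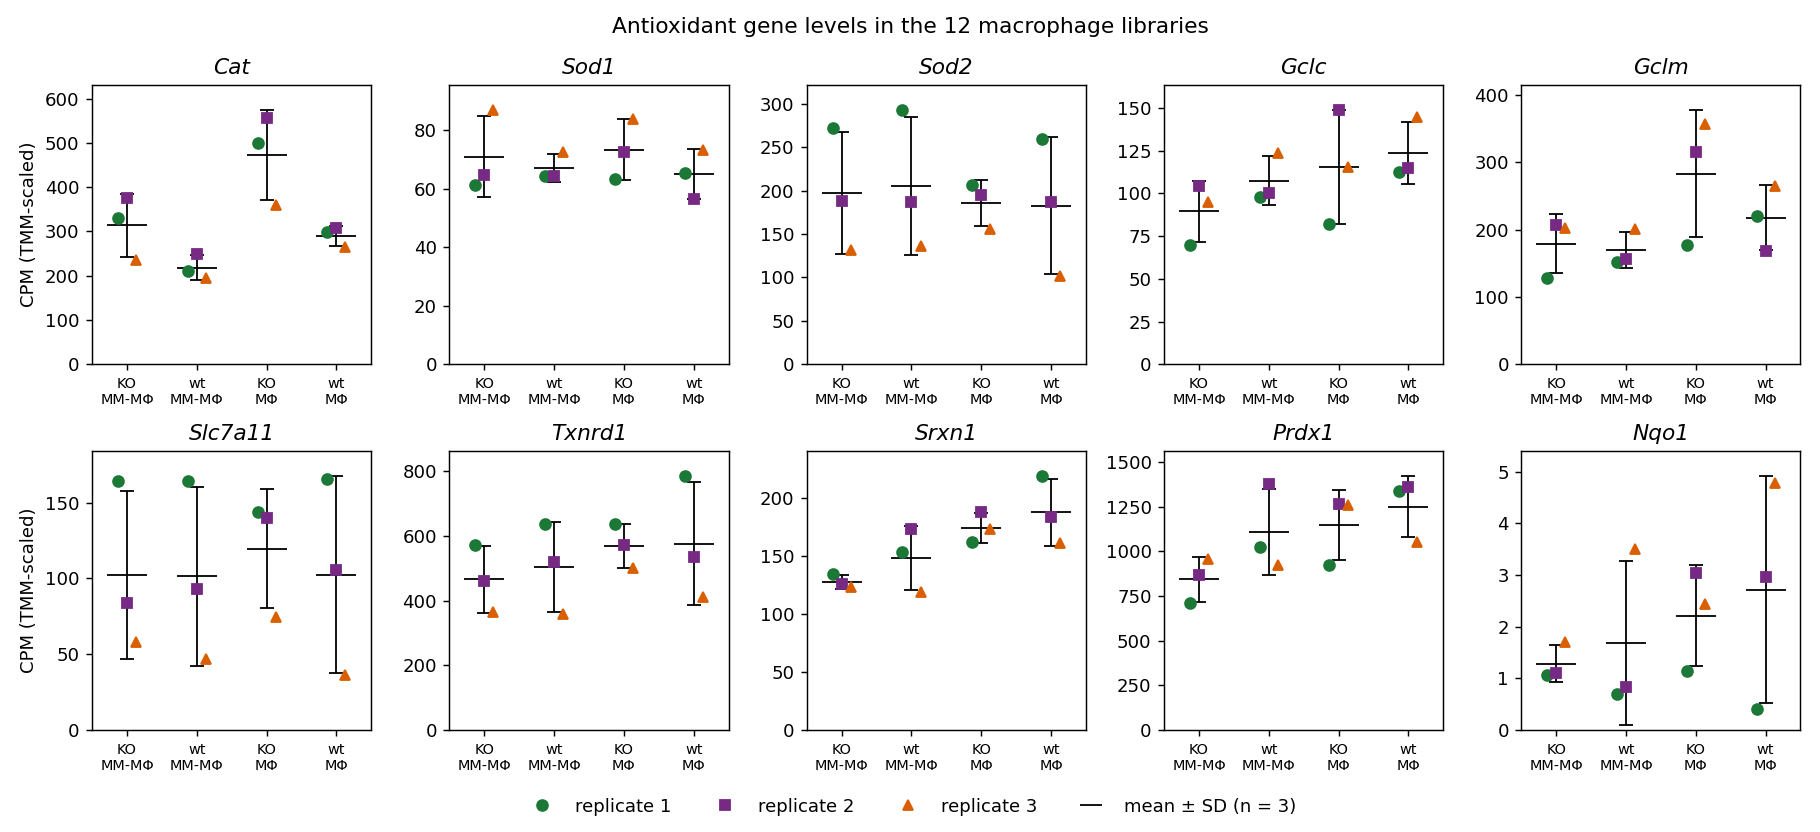
TMM-scaled CPM of each gene (vertical axes, from 0) in MM-MΦs of BMI1-KO and wt mice and in MΦs of BMI1-KO and wt mice. Points are the 3 libraries of a group, marked by replicate number, and bars are mean ± SD. The BMI1-KO MΦ libraries of Cat (360 to 556 CPM) all lie above the wt MΦ libraries (264.5 to 307 CPM). These groups lie apart, in either direction, for 10.0% of all genes. For Slc7a11 the spread by number within a group is larger than any difference between groups.

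The question between genotypes is whether loss of BMI1 changes these genes in MM-MΦs and in MΦs. Cat, on chromosome 2 of GRCm38 from 103453849 to 103485160 (ENSMUSG00000027187), encodes the heme enzyme that breaks down hydrogen peroxide in peroxisomes, and it stood highest in BMI1-KO cells. It had 501, 556 and 360 CPM in BMI1-KO MΦs numbered 1, 2 and 3, against 298, 307 and 264.5 CPM in wt MΦs. The BMI1-KO libraries were all higher and the groups did not overlap. Groups lay apart in this comparison, in either direction, for 10.0% of all genes. The log2 fold change was 0.70 (SE 0.20, 95% interval 0.27 to 1.14), and it did not pass the test over all genes (edgeR adjusted p = 0.50).

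In MM-MΦs, Cat had 329, 376 and 236.5 CPM in the BMI1-KO libraries, against 211, 249 and 194 CPM in the wt libraries. BMI1-KO replicate 3 lay below wt replicate 2, so the groups overlapped. The log2 fold change was 0.53 (SE 0.20, 95% interval 0.09 to 0.96, edgeR adjusted p = 0.81). With the libraries numbered 3 left out it was 0.63 in MM-MΦs (adjusted p = 0.26) and 0.81 in MΦs (adjusted p = 0.18). With those numbered 2 left out it was 0.48 and 0.61, and with those numbered 1 left out 0.47 and 0.67. The fits without number 1 or 2 were chosen after seeing the data.

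Summed levels of other markers were set beside Cat. Those of neutrophil and proliferation markers overlapped between genotypes, and those of B cell markers did not. The 8 neutrophil markers, led by Ngp, Ltf and S100a8, summed to 16.1, 156 and 16.1 CPM in BMI1-KO MM-MΦs and to 6.2, 19.2 and 15.4 CPM in wt MM-MΦs. They summed to 34.4, 79.8 and 8.74 CPM in BMI1-KO MΦs and to 5.69, 16.2 and 9.28 CPM in wt MΦs. In all 4 groups, wt as well as BMI1-KO, the library numbered 2 had the most of both neutrophil markers and Cat. In each group 1 of the 8 markers was at 0 (Ly6g in MM-MΦs, Elane in MΦs). The part of neutrophils in the Cat values was not tested. The 8 proliferation markers summed to 317 to 943 CPM in BMI1-KO MM-MΦs against 559 to 2620 CPM in wt MM-MΦs. B cell markers, of which only Cd79b was above 1.08 CPM, summed to 18.6 to 20.3 CPM in BMI1-KO MM-MΦs against 7.67 to 12 CPM in wt MM-MΦs. Erythroid markers (red cells are rich in catalase) reached at most 0.606 CPM in summed level in any library, T and NK cell markers 1.31 CPM, and fibroblast markers 9.84 to 50.8 CPM.

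None of the 10 genes passed the test between genotypes in edgeR without a block. In BMI1-KO MM-MΦs versus wt MM-MΦs, 0 of 10 passed, where 0.0634% of all genes did. In BMI1-KO MΦs against wt MΦs 0 of 10 passed, where 0.0493% of all genes did. At an unadjusted p under 0.05 the count was 1 in each, which was Cat, against 712 and 819 of 14197 genes. DESeq2 and limma-voom without a block also gave 0 after adjustment. With the replicate number as a block across all 4 groups, Cat passed in edgeR (adjusted p = 0.0346 in MM-MΦs, 0.00616 in MΦs). That fit pairs the genotypes by number, a pairing that was not assumed here. The 3 libraries of one group lay wholly apart from the other 3 for 0 of the 10 genes in MM-MΦs, against 8.85% of all genes, and for 1 of the 10, Cat, in MΦs, against 10.0% of all genes.

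Prdx1, which reduces peroxides with electrons from thioredoxin, was the member with the lowest log2 fold change in MM-MΦs. It had 709, 866 and 955 CPM in BMI1-KO MM-MΦs against 1025, 1379 and 923 CPM in wt MM-MΦs. On the log2 scale the difference was −0.39 (SE 0.20, 95% interval −0.84 to 0.05, edgeR adjusted p = 0.999). Gclc, the catalytic subunit of glutamate cysteine ligase, the first enzyme of glutathione synthesis, gave −0.26 (95% interval −0.74 to 0.22). Srxn1, sulfiredoxin, which repairs over-oxidised peroxiredoxins, gave −0.22 (95% interval −0.56 to 0.12), and Txnrd1, the cytosolic thioredoxin reductase, gave −0.11 (95% interval −0.70 to 0.47). The 95% intervals of all 4 genes span 0, and for each the libraries of the groups overlapped.

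The superoxide dismutases showed no difference that could be told from 0. Sod1, the copper and zinc enzyme of the cytosol, had 61.3, 64.8 and 86.8 CPM in BMI1-KO MM-MΦs and 64.4, 64.5 and 72.5 CPM in wt MM-MΦs, and the log2 fold change was 0.08 (95% interval −0.28 to 0.44). Sod2, the manganese enzyme of mitochondria, had 272, 188 and 132 CPM in BMI1-KO MM-MΦs and 293, 186 and 137 CPM in wt MM-MΦs. Its log2 fold change was −0.06 with a wider 95% interval of −0.86 to 0.74, and the libraries of a group differed among themselves by more than the groups did. Slc7a11, which carries cystine into the cell, had 164, 84.1 and 58.2 CPM in BMI1-KO MM-MΦs and 164, 93.0 and 46.8 CPM in wt MM-MΦs, a log2 fold change of 0.01 (95% interval −1.25 to 1.27). The intervals for Sod2 and Slc7a11 allow a difference either way.

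Gclm, the modifier subunit of glutamate cysteine ligase, was the only other member with a log2 fold change above 0.3 in MΦs. It had 177, 315.5 and 356.5 CPM in BMI1-KO MΦs against 221, 168 and 264 CPM in wt MΦs. The groups overlapped, and the log2 fold change of 0.38 (SE 0.27, 95% interval −0.22 to 0.98) did not pass the test (edgeR adjusted p = 0.97). Nqo1, NAD(P)H quinone dehydrogenase, had 10, 11 and 19 counts in BMI1-KO MM-MΦs and 7, 8 and 40 counts in wt MM-MΦs. With such counts its log2 fold change of −0.39 had a 95% interval of −2.16 to 1.39, and a difference was not detectable at this depth.

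**Figure D2:**
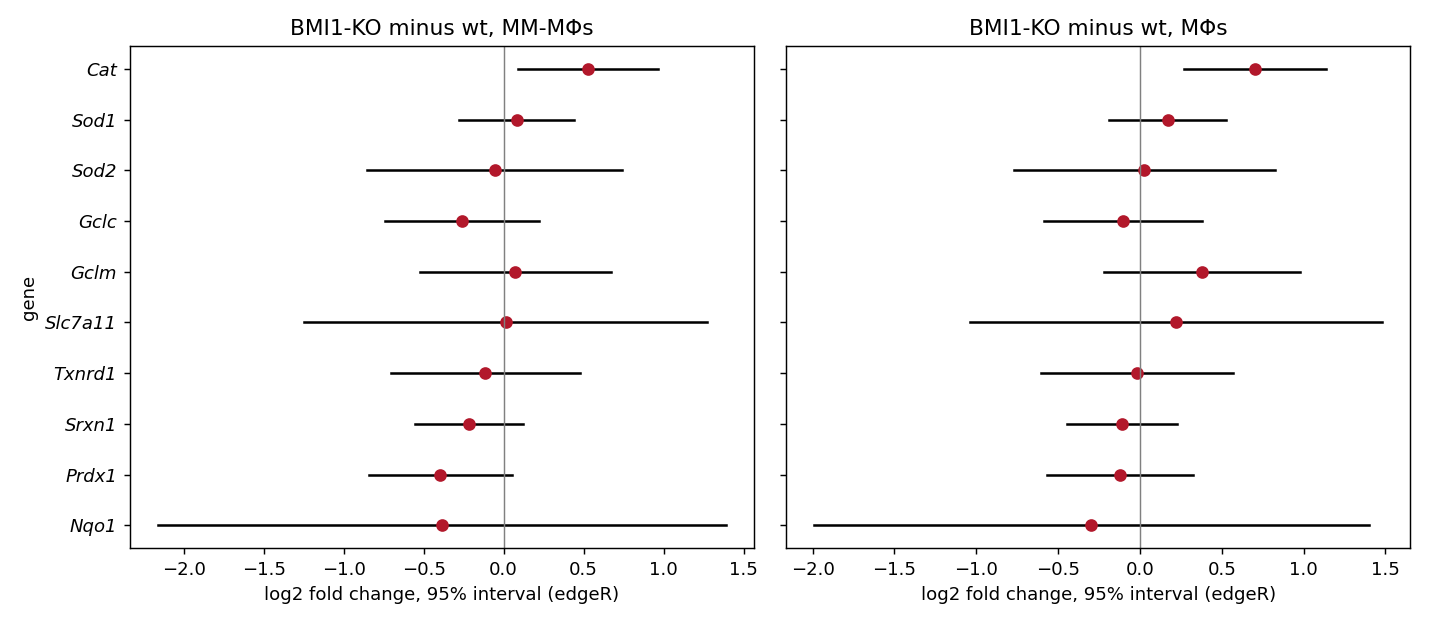
Log2 fold change of BMI1-KO over wt (horizontal axes) for each gene, in MM-MΦs on the left and MΦs on the right. Points are edgeR estimates from 3 libraries a group and lines are 95% intervals, none adjusted for the number of genes. The interval of Cat lies above 0 in both (0.09 to 0.96 in MM-MΦs, 0.27 to 1.14 in MΦs), those of the other 9 genes span 0, and Nqo1 has the widest.

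These comparisons share libraries with the next ones. Those ask how these genes differ between MM-MΦs and MΦs, where 48 h with myeloma cells may go with a longer culture. Cat, Gclc, Gclm, Txnrd1 and Srxn1 were lower in the MM-MΦ library than in the MΦ library of the same genotype and number in 6 of 6 pairs, which held for 3.16% of all genes, and Prdx1 was lower in 5 of 6. In BMI1-KO cells Cat, Gclm, Prdx1, Srxn1 and Gclc fell by 0.35 to 0.64 on the log2 scale in the fit that keeps the pair as a block. In wt cells Cat alone passed that test. Without the block, none of the 10 genes passed in either genotype.

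In edgeR without a block, 0 of 10 genes passed in BMI1-KO MM-MΦs against BMI1-KO MΦs, where 0.190% of all genes did, and 0 of 10 in wt MM-MΦs against wt MΦs, where 0.0916% of all genes did. At an unadjusted p under 0.05 there were 3 in BMI1-KO (Cat, Srxn1, Gclm) and 1 in wt (Srxn1), against 418 and 282 of 14197 genes. DESeq2 and limma-voom without a block gave 0 after adjustment. With the pair as a block, 5 of 10 were lower in BMI1-KO MM-MΦs, against 0.317% of all genes called lower, and 1 of 10 was lower in wt MM-MΦs, against 0.0423% of all genes. No member was called higher in either. Over the 10 genes the median log2 fold change with the block was −0.39 in BMI1-KO and −0.19 in wt, where over all genes tested it was −0.01 and 0.00401. The pairing was read from how the libraries deviate together and is not stated in the labels.

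Cat was lower in the co-culture of both genotypes. In BMI1-KO pairs numbered 1, 2 and 3 it was at 329, 376 and 236.5 CPM in MM-MΦs against 501, 556 and 360 CPM in MΦs. Those pairs differed by −0.61 to −0.56 on the log2 scale, with a mean of −0.59 ± 0.02 (SD, n = 3), so the 3 pairs gave almost the same difference at quite different levels. The log2 fold change was −0.59 in both fits, with SE 0.20 and edgeR adjusted p = 1 without the block and SE 0.08 and adjusted p = 4.33e-05 with it. It passed with the block when any pair was left out.

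In wt pairs Cat was at 211, 249 and 194 CPM in MM-MΦs against 298, 307 and 264.5 CPM in MΦs. The groups did not overlap, which held for 5.66% of all genes in either direction. The log2 fold change was −0.41 (edgeR adjusted p = 1) without the block and −0.42 (SE 0.08, adjusted p = 0.00414) with it. This call was lost without wt pair 1 (adjusted p = 0.11) or pair 3 (adjusted p = 0.10) and held without pair 2 (adjusted p = 0.0108).

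The subunits of glutamate cysteine ligase were lower together in BMI1-KO MM-MΦs. Gclm, on chromosome 3 from 122245557 to 122270732, had 128, 206 and 202 CPM in BMI1-KO MM-MΦs against 177, 315.5 and 356.5 CPM in BMI1-KO MΦs. Every pair was lower, by 0.47 to 0.82 on the log2 scale, although the groups overlapped. With the block its log2 fold change was −0.64 (SE 0.09, edgeR adjusted p = 0.000181), and it was −0.66 (SE 0.27, adjusted p = 1) without. In wt pairs, at 152, 157 and 200.4 CPM in MM-MΦs against 221, 168 and 264 CPM in MΦs, it was −0.35 with the block (adjusted p = 0.09), −0.36 without it, and −0.46 (adjusted p = 0.0285) without wt pair 2.

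Gclc, on chromosome 9 from 77754535 to 77794485, had 69.6, 104 and 94.8 CPM in BMI1-KO MM-MΦs against 81.9, 149 and 115 CPM in BMI1-KO MΦs. It was lower in each pair. Its change of −0.35 on the log2 scale (SE 0.09) with the block passed narrowly (edgeR adjusted p = 0.0401), and it was −0.36 without the block. Leaving out any 1 of the 6 pairs took Gclc above the threshold. The wt pairs were at 97.8, 100.5 and 124 CPM in MM-MΦs and 112, 115 and 145 CPM in MΦs, with a log2 fold change of −0.20 (adjusted p = 0.62) with the block and −0.21 without it.

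Of the thioredoxin system, Prdx1 and Srxn1 were lower in BMI1-KO MM-MΦs. Prdx1, on chromosome 4 from 116685544 to 116700822, had 709, 866 and 955 CPM in BMI1-KO MM-MΦs against 924, 1265 and 1258 CPM in BMI1-KO MΦs, and each pair was lower by 0.38 to 0.55 on the log2 scale. Prdx1 gave −0.44 (SE 0.08, edgeR adjusted p = 0.00343) with the block and −0.45 (adjusted p = 1) without it. The call with the block was lost without BMI1-KO pair 2 (adjusted p = 0.0678). In wt it had 1025, 1379 and 923 CPM in MM-MΦs against 1337, 1358 and 1052 CPM in MΦs, where pair 2 was level, and the log2 fold change was −0.18 with the block and −0.17 without it.

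Srxn1, on chromosome 2 from 152105516 to 152111376, had 134, 125.5 and 123 CPM in BMI1-KO MM-MΦs against 162, 188 and 173 CPM in BMI1-KO MΦs. It was the 1 of 10 genes whose BMI1-KO libraries did not overlap between the cultures, against 7.08% of all genes. In wt cells that held for Cat alone, 1 of 10 against 5.66% of all genes. Srxn1 in BMI1-KO was at −0.45 (SE 0.09, edgeR adjusted p = 0.00926) with the block and −0.45 (adjusted p = 1) without it. That call was lost without BMI1-KO pair 2 (adjusted p = 0.14) or pair 3 (adjusted p = 0.0882). In wt, at 153, 173.5 and 119 CPM in MM-MΦs against 218.5, 183 and 161 CPM in MΦs, it was −0.34 in both fits (adjusted p = 0.10 with the block), and −0.47 (adjusted p = 0.0245) without wt pair 2.

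Txnrd1, on chromosome 10 from 82833951 to 82897712, was lower in all 6 pairs but passed in neither genotype. It had 572, 459.5 and 366 CPM in BMI1-KO MM-MΦs against 637, 571 and 500 CPM in BMI1-KO MΦs. The estimate was −0.31 (SE 0.08, edgeR adjusted p = 0.0587) with the block and −0.29 without it. In wt it had 635, 519 and 358 CPM in MM-MΦs against 784, 534 and 410 CPM in MΦs, and the log2 fold change was −0.18 with the block and −0.19 without it. With DESeq2 and with limma-voom, both with the block, 6 of the 10 genes passed in BMI1-KO, Txnrd1 among them. Txnrd1 shares its span with Eid3, which had 354 to 968 counts, and Sod1 overlaps with Scaf4, and no source used here gives the strand setting of the counting, so their reads may be split between the overlapping genes.

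**Figure D3:**
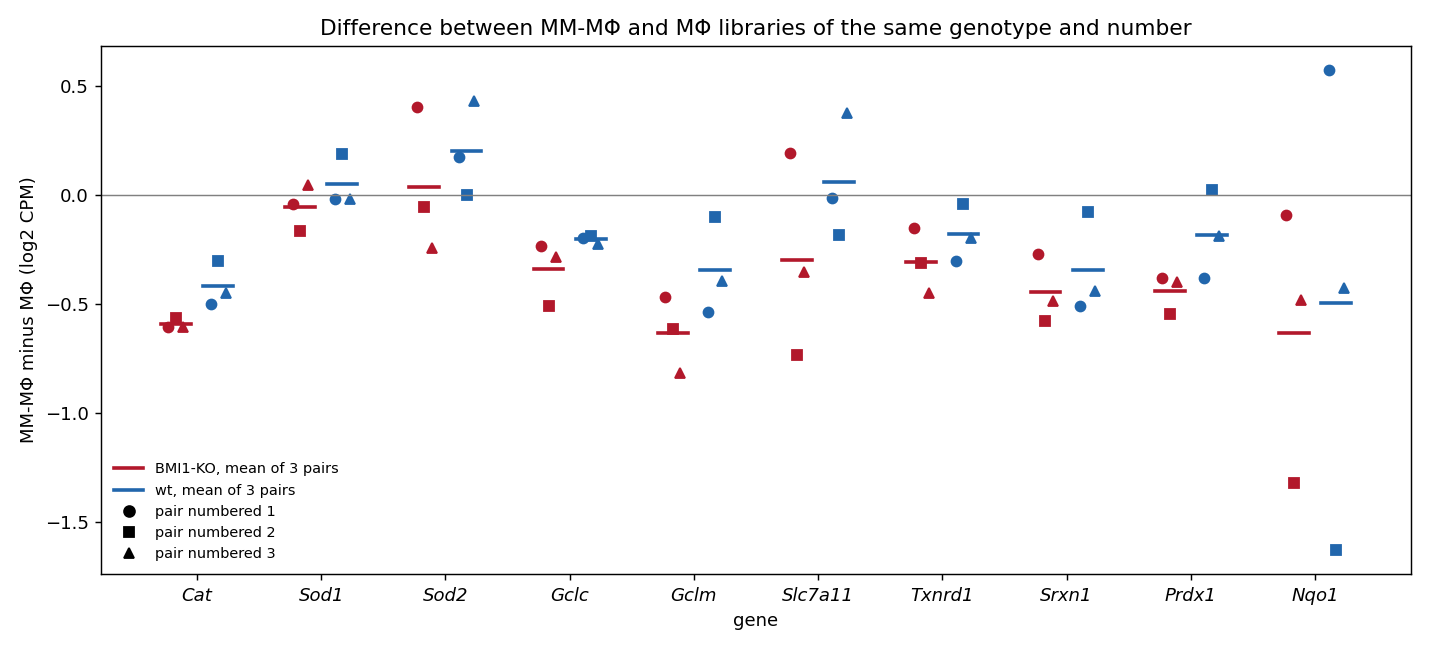
Difference in log2 CPM between the MM-MΦ and the MΦ library of the same genotype and number (vertical axis) for each gene. Points are the 3 pairs of BMI1-KO (left, red) and wt (right, blue), marked by number, and lines are their means. Cat lies at −0.61 to −0.56 in the BMI1-KO pairs and at −0.50 to −0.30 in the wt pairs, and Sod1, Sod2 and Slc7a11 lie on both sides of 0.

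Sod1, Sod2, Slc7a11 and Nqo1 had pairs on both sides of 0. The pair differences of Sod1 ran from −0.16 to 0.05 on the log2 scale in BMI1-KO and from −0.02 to 0.19 in wt. Those of Sod2 ran from −0.24 to 0.40 in BMI1-KO and from −0.00237 to 0.43 in wt, and those of Slc7a11 from −0.73 to 0.19 in BMI1-KO and from −0.18 to 0.37 in wt. For Sod1 and Sod2, which act on superoxide itself, the pairs did not share a direction in either genotype. Nqo1, at 0.41 to 4.78 CPM in all libraries, ran from −1.32 to −0.09 in BMI1-KO and from −1.63 to 0.57 in wt.

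The summed level of plasma cell and myeloma markers was higher in the MM-MΦ library of every pair, though not every marker was. The 10 markers, led by Prdm1, Xbp1 and Sdc1, summed to 403 to 515 CPM in BMI1-KO MM-MΦs against 286 to 317 CPM in BMI1-KO MΦs. In wt MM-MΦs they summed to 471 to 723 CPM against 287 to 490 CPM in wt MΦs, so the wt ranges overlapped. In BMI1-KO MM-MΦs against BMI1-KO MΦs, Prdm1 averaged 131 against 145 CPM, Xbp1 149.5 against 134 CPM and Sdc1 15.9 against 14.5 CPM. In wt these averaged 192 against 172 CPM, 144 against 128 CPM and 73.7 against 74.8 CPM. Igkc, an immunoglobulin light chain made by plasma cells, averaged 68.5 CPM in BMI1-KO MM-MΦs against 1.38 CPM in BMI1-KO MΦs, and 84.1 CPM in wt MM-MΦs against 6.63 CPM in wt MΦs. Of the list, 1 marker (Mzb1) was at 0 in BMI1-KO MM-MΦs and 3 (Mzb1, Tnfrsf17, Pou2af1) in BMI1-KO MΦs, while none was at 0 in wt MM-MΦs. The part of these cells in the co-culture values was not tested. In sorted bulk samples, fewer cells of a type and less RNA per cell cannot be told apart.

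Whether the co-culture acted differently in the genotypes was tested as an interaction, the log2 fold change in BMI1-KO minus that in wt. All 10 estimates were below 0, as were 50.8% of those of all genes, from −0.31 for Gclm to −0.08 for Sod2, and 0 of 10 passed in edgeR, where 0% of all genes did. With the block 0 of 10 passed, against 0.00704% of all genes. At an unadjusted p under 0.05 there were 0 without the block and 2 (Gclm and Prdx1) with it, against 129 and 471 of 14197 genes. Gclm was at −0.29 (SE 0.13, 95% interval −0.56 to −0.02) and Prdx1 at −0.26 (SE 0.12, 95% interval −0.51 to −0.01) with the block, and Cat at −0.18 (95% interval −0.40 to 0.05). So the 5 calls in BMI1-KO and the 1 call in wt do not show that the genotypes differ.

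Several of the genes moved with the replicate number, which the 4 groups share. In all 4 groups, the library numbered 1 was highest and that numbered 3 lowest for Sod2, Slc7a11 and Txnrd1. Slc7a11 had the widest spread, at 36.1 to 74.6 CPM in the 4 libraries numbered 3 and 144 to 166 CPM in those numbered 1. On average the libraries numbered 1 and 3 stood 0.74 above and 0.87 below the group mean on the log2 scale for Slc7a11, 0.47 above and 0.50 below for Sod2, and 0.34 above and 0.35 below for Txnrd1. Cat was highest in the libraries numbered 2 and lowest in those numbered 3 in all 4 groups, Sod1 was highest in those numbered 3, and Gclc and Nqo1 were lowest in those numbered 1. The proliferation markers given above were likewise lowest in the libraries numbered 1 and highest in those numbered 3, and their part in these values was not tested.

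**Figure D4:**
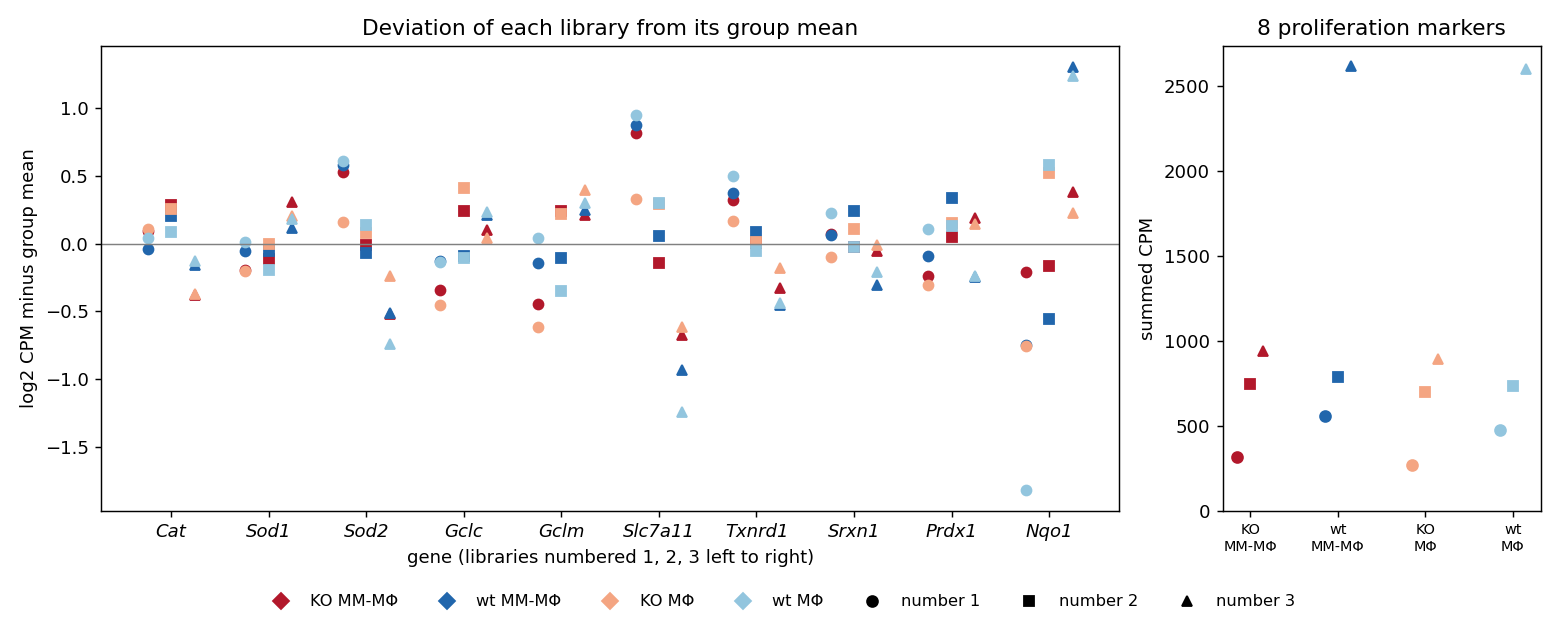
Left, deviation of each library from its group mean (log2 CPM, vertical axis) for each gene, with the libraries numbered 1, 2 and 3 from left to right and colours for the 4 groups. Right, summed CPM of 8 proliferation markers in the same libraries. Sod2, Slc7a11 and Txnrd1 are highest in number 1 and lowest in number 3 of every group, while the markers sum to 268 to 559 CPM in the libraries numbered 1 and 893 to 2620 CPM in those numbered 3.

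Over the 12 libraries Sod2 and Slc7a11 followed each other with r = 0.95, Txnrd1 and Slc7a11 with r = 0.90 and Sod2 and Txnrd1 with r = 0.83, where the points share group and number. Gclc and Gclm gave r = 0.74 and Srxn1 and Prdx1 r = 0.80. Of all genes tested, those most like Sod2 were Map3k8 (r = 0.99) and Lilr4b (r = 0.99), and those most like Slc7a11 were Clec4d and Irf1 (r = 0.98 each). Those most like Cat were Fgfrl1 and Ampd3 (r = 0.90 each), those most like Gclm were Gbe1 (r = 0.94) and 1810026B05Rik (r = 0.94), and those most like Prdx1 were Abhd5 (r = 0.94) and Cd36 (r = 0.93). Imp4 and Nop2 were most like Sod1 (r = 0.96 each), Parvg (r = 0.93) and Shtn1 (r = 0.92) most like Gclc, Tfeb (r = 0.95) and Chic2 (r = 0.94) most like Txnrd1, Blvrb and Atp5k (r = 0.87 each) most like Srxn1, and Slc19a2 and Atpaf2 (r = 0.90 each) most like Nqo1. These r values are Pearson correlations of log2 CPM over 12 libraries and are given as a description.

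The other genes of the pathway were taken from 5 lists. Of the 14 regulators of NRF2, which include Nfe2l2 (NRF2 itself) and its inhibitor Keap1, none passed in any of the 5 comparisons of edgeR. That was without the block. None passed with the block either, which was fitted for the co-culture comparisons and the interaction but not between genotypes. At an unadjusted p under 0.05 there were 0 to 3 of the 14, against 129 to 1506 of 14197 genes. Nfe2l2 averaged 352 CPM in BMI1-KO MM-MΦs, 384 CPM in wt MM-MΦs, 347.5 CPM in BMI1-KO MΦs and 361 CPM in wt MΦs. Without the block, the smallest p in this list belonged to Rbx1, a subunit of the ligase that KEAP1 works with, at −0.24 on the log2 scale in BMI1-KO MM-MΦs against BMI1-KO MΦs (edgeR adjusted p = 1), and to Bach1, a repressor of NRF2 targets, at 0.34 in BMI1-KO MΦs against wt MΦs (adjusted p = 0.97).

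Other NRF2 targets leaned the same way as the members in the co-culture. Of 24 on the list 20 were tested, and without the block 19 of 20 were below 0 in BMI1-KO MM-MΦs against BMI1-KO MΦs (median −0.26 on the log2 scale) and 16 of 20 in wt MM-MΦs against wt MΦs (median −0.16). Over all genes 51.3% and 49.3% were below 0 in these comparisons. None of the 20 passed without the block. With it, Esd, which encodes S-formylglutathione hydrolase, at −0.55 (SE 0.09, edgeR adjusted p = 0.00107), and Osgin1, at −0.39 (SE 0.09, adjusted p = 0.0139), were lower in BMI1-KO MM-MΦs, and 0 of 20 passed in wt. Between genotypes none passed: Me1, malic enzyme, was at 1.89 (adjusted p = 0.73) in BMI1-KO MΦs against wt MΦs, and Cbr3, a carbonyl reductase, at −0.82 (adjusted p = 0.50) in BMI1-KO MM-MΦs versus wt MM-MΦs. Hmox1, heme oxygenase, which was looked at after its values were seen, averaged 1419 CPM in BMI1-KO MM-MΦs against 745 CPM in wt MM-MΦs. Its log2 fold change was 0.93 (edgeR adjusted p = 0.999). The libraries ran from 508 to 2234 CPM in BMI1-KO MM-MΦs and from 642 to 880 CPM in wt MM-MΦs, so the groups overlapped.

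Of 31 glutathione genes 25 were tested, and none passed in edgeR without the block. With it 1 was lower in BMI1-KO MM-MΦs, Mgst1, a microsomal glutathione transferase, at −0.35 (SE 0.08, edgeR adjusted p = 0.0252), and 0 of 25 passed in wt. Gstm2 (−1.49 in BMI1-KO MΦs against wt MΦs, adjusted p = 0.85) and Gsta3 (−1.42 in BMI1-KO MM-MΦs against BMI1-KO MΦs, adjusted p = 1), a pair of glutathione transferases, had the smallest p without the block. Of 19 thioredoxin and peroxiredoxin genes 18 were tested and none passed in either fit. Without the block, 12 of these 18 were above 0 and 6 below in BMI1-KO MM-MΦs against BMI1-KO MΦs (median 0.07 on the log2 scale). In wt MM-MΦs against wt MΦs 9 were above 0 and 9 below (median −0.0024). Msrb2, a methionine sulfoxide reductase, was at 0.71 in BMI1-KO MM-MΦs versus wt MM-MΦs (adjusted p = 0.78), and Prdx6 at −0.38 in BMI1-KO MM-MΦs against BMI1-KO MΦs (adjusted p = 1).

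Of 19 genes for sources of superoxide and nitric oxide 9 were tested, and none passed in either fit. Rac2, a GTPase of phagocytes, was at 0.31 in BMI1-KO MM-MΦs against BMI1-KO MΦs (edgeR adjusted p = 1). In that comparison 8 of the 9 were above 0 (median 0.05), against 1 of 10 antioxidant genes (median −0.40), both without the block. Over all genes 51.3% were below 0 there. In wt MM-MΦs against wt MΦs 6 of the 9 were above 0 (median 0.05), against 2 of 10 antioxidant genes (median −0.20). Over all genes 49.3% were below 0 in wt. The lists are described by these counts and no test of a list was made.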

How the data were processed

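RNA-seq of 12 libraries was used, 4 groups of 3. The authors deposited raw counts per gene and FPKM values per library. By the submitters' notes reads were aligned with HISAT2 2.0.1 to GRCm38 (mm10) and counted with HTSeq 0.6.1, after bcl2fastq 2.17.1.14 and cutadapt 1.9.1, and DESeq2 was used for normalization. The DESeq2 version, strand setting and annotation release: not given in the sources used here. The deposited FPKM values were used only for the order of levels, and the deposited counts for all tests. Every value column of the count table was matched to a library by its name.

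The quasi-likelihood test of edgeR 4.0.16 (R 4.3.3) was run on these counts, with TMM scaling, filterByExpr (minimum count 10, minimum total 15) and 1 model with a mean for each group. Benjamini-Hochberg adjustment ran over 14197 genes, with a threshold of 0.05. SE and 95% intervals come from the same fit. Log2 CPM used a prior count of 2. Alternatives were other scalings, DESeq2 1.42.0, limma-voom (limma 3.58.1), other filters, the 6 libraries compared alone, the replicate number as a block, and libraries left out. The code was tested on simulated data.

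After subtracting group means, MM-MΦ and MΦ libraries of the same number correlated across genes at 0.642, 0.18 and 0.598 in BMI1-KO and 0.548, 0.361 and 0.725 in wt for numbers 1, 2 and 3. All were above 0.1, so the numbers were read, from the data, as pairing the libraries within a genotype. Between genotypes they were 0.497, 0.0331 and 0.508 in MM-MΦs and 0.481, −0.0313 and 0.503 in MΦs, and no pairing was assumed.

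The members and lists were chosen with earlier results of these data known. All members were named, with the genes of each other list past the threshold or else the 2 with the smallest p, the 3 highest markers of each cell type list, and the 2 genes most correlated with each member. Nfe2l2, Keap1, Hmox1 and Igkc were named outside this rule. Sequences are from RefSeq. A gene that the rule would name is not reported here.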

Additional observations from a re-analysis of the deposited data

How the results depend on the processing

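The count of 0 genes called between genotypes became 1, Cat, only with the replicate number as a block across all 4 groups, in BMI1-KO MM-MΦs versus wt MM-MΦs (0.51, adjusted p = 0.0346) and in BMI1-KO MΦs against wt MΦs (0.68, adjusted p = 0.00616). That block gave 1 in BMI1-KO MM-MΦs against BMI1-KO MΦs and 0 in wt. Fits without the 4 libraries numbered 1 or 2, or without a pair, were chosen after seeing the data. So were DESeq2 and limma-voom with the block within genotype. The replicate block within genotype gave 5 in BMI1-KO and 1 in wt, or 6 and 1 with DESeq2 and with limma-voom. Leaving out wt pair 1, 2 or 3 from it gave 4, 4 and 4 in BMI1-KO and 0, 3 and 0 in wt, and leaving out BMI1-KO pair 1, 2 or 3 gave 5, 2 and 3 in BMI1-KO and 1 each in wt. The interaction stayed at 0 in every alternative run. Single libraries turned the sign of 6 log2 fold changes of BMI1-KO MM-MΦs over wt MM-MΦs, with ranges over libraries left out of −0.083 to 0.18 for Sod1, −0.36 to 0.29 for Sod2, −0.042 to 0.27 for Gclm, −0.29 to 0.088 for Txnrd1, −0.51 to 0.55 for Slc7a11 and −0.75 to 0.77 for Nqo1. Among the other log2 fold changes given, they turned Txnrd1 in wt MM-MΦs against wt MΦs (−0.40 to 0.10) and the interaction of Cat (−0.33 to 0.000511). Without the 4 libraries numbered 3, Sod1 (−0.018), Slc7a11 (−0.036) and Nqo1 (0.51) turned sign in BMI1-KO MM-MΦs versus wt MM-MΦs. Of 1410 log2 fold changes over all 10 genes, 5 comparisons and the alternatives, 100 changed sign, none of which passed the test. Counts of 4 to 56 limit Nqo1, and 3 libraries a group limit all tests.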
